A study of Mus musculus with 12 samples.

Results

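Polysome-associated mRNA was set against total mRNA of mouse neural stem cells (NSCs) grown at a low folate concentration, using RNA bisulfite sequencing (RNA BS-seq). The NSCs came from the subventricular zone of wild-type male C57BL/6 mice aged 6 to 8 weeks and were kept for 4 days in medium with EGF and bFGF. At low folate (1.5 µM folic acid) there were 2 libraries of total mRNA, called LF, and 2 of polysome mRNA, called pLF. These 4 of the 12 libraries of the series were chosen by their labels. The 4 libraries at mid folate (10 µM), 2 of total mRNA (MF) and 2 of polysome mRNA (pMF), were used to see whether the same contrast differed with folate. The study calls the replicates biological duplicates, but which of them share source animals was not given, so p-values measure only the spread between these libraries. The growth protocol was the same for all groups apart from folic acid. The study describes cycloheximide, added before lysis to hold ribosomes on the mRNA, under polysome fractionation. It does not say there whether cells for total mRNA received it too. Polysome mRNA was a pool of the heavier gradient fractions, so lightly loaded mRNAs were not in it.

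5-methylcytosine (m5C) in RNA is made mainly by NSUN2 and NSUN6 in mRNA, and proteins such as ALYREF and YBX1 bind it. Bisulfite turns an unmethylated cytosine into uracil, so that a cytosine still read as C counts as methylated or unconverted. NSUN2 sites in mRNA often sit before a run of G, and NSUN6 sites sit at CTCCA. mRNAs with many ribosomes are in active translation, while mRNAs with strong uORF control, such as Atf4, move onto polysomes when initiation is limited. Mitochondrial mRNAs are translated by the ribosomes of the mitochondrion.

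The shares of unconverted reads at single cytosines carry the first result, and the sites shown here had the largest differences between pLF and LF among isolated nuclear sites. Each line gives 21 bases of the sense strand as deposited with the data, with the tested cytosine in capitals, and the positions are those of mm10. They are the largest rises among the isolated sites that Fisher's exact test called and whose groups did not overlap. All 10 sites were thus higher in pLF by the choice of sites.
Eif4b (chr15:102073931-102073951, plus strand, 5′UTR): ttctctctccCtctcccaaca
Hnrnpa2b1 (chr6:51462888-51462908, minus strand, 3′UTR): taagatttttCtcaaaagttt
Slc6a6 (chr6:91755478-91755498, plus strand, 3′UTR): gaaagttctgCccaaaaacaa
Thbs3 (chr3:89217870-89217890, plus strand, coding sequence): gccccgatccCtccagcagag
Pgm2 (chr5:64105779-64105799, plus strand, coding sequence): gaagttcgtgCacacctctgt
Eif3e (chr15:43265504-43265524, minus strand, coding sequence): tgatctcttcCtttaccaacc
Sorcs2 (chr5:36018118-36018138, minus strand, 3′UTR): gagcgaggccCgggtgtctca
Crybb1 (chr5:112257453-112257473, plus strand, coding sequence): gccccatccaCagggccagcc
Csnk2a1 (chr2:152280160-152280180, plus strand, 3′UTR): gagccactatCtccagtgaac
Mfsd10 (chr5:34635671-34635691, minus strand, coding sequence): gaggcatcagCaaggggaacg
The context of the deposited lists was equal to the GRCm38.p6 genome at 422 of 422 nuclear sites tested. Of these 10 sites, those of Eif4b, Hnrnpa2b1, Slc6a6 and Eif3e were not among the 253 high-confidence positions of the study.

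The deposited lists hold cytosines with coverage of 10 or more and at least 1 unconverted read, and they held 1821168 and 2008585 cytosines in LF and 990013 and 1657017 in pLF. Median coverage was 521 and 556 in LF and 395 and 390 in pLF. Cytosines in introns made up 3.15% and 2.80% of the listed cytosines in LF and 0.397% and 0.484% in pLF, and of coverage 0.222% and 0.203% in LF and 0.156% and 0.160% in pLF. The mitochondrial chromosome took 0.278% and 0.304% of coverage in LF and 0.0434% and 0.0433% in pLF. The unconverted share of background cytosines was 0.148% and 0.145% in LF and 0.176% and 0.181% in pLF. The 12 NSC markers, of which 10 were listed in all 4 libraries, had a summed level of 119 and 114 times the median gene in LF and 125 and 143 times in pLF. Within this list Vim, an intermediate filament gene, stood at 71.6 and 68.8 in LF and 87.2 and 90.8 in pLF, while Nes, the nestin gene, stood at 5.72 and 5.24 in LF and 3.83 and 3.37 in pLF. Of other cell types, 3 of 8 neuronal markers were listed in all 4 libraries (summed level 1.54 to 2.62), 1 of 6 of oligodendrocytes (2.40 to 2.96), 2 of 6 of microglia (0.491 to 1.03), 1 of 4 of ependymal cells (0.233 to 0.443) and none of 5 of endothelial cells. At 0 in all 4 libraries were Rbfox3, Syt1, Snap25 and Neurod1 of neurons, Mbp, Mog, Mag and Sox10 of oligodendrocytes, and Aif1, Csf1r, Itgam and P2ry12 of microglia. Of 8 mesenchymal markers 5 were listed in all 4 libraries, with a summed level of 12.1 and 12.8 in LF and 15.3 and 10.8 in pLF, most of it Col1a2, while Dcn and Lum were at 0. The summed level of the astrocyte list, 3 of 5 in all 4 libraries, was 4.23 and 3.10 in LF and 1.51 and 1.10 in pLF. The part of these levels in the results was not tested, nor was that of the intron and mitochondrial shares. Sox2, a defining NSC gene, had no cytosine assigned to it, since it lies within Sox2ot on the same strand. In bulk RNA, fewer cells of a type, less RNA per cell and, between LF and pLF, a different polysome loading cannot be told apart from these levels.

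The share of unconverted reads was higher in polysome than in total mRNA in the mean over the sites tested. Its size depended on how sites were chosen. The study's signal-to-noise and RNA structure filters were not applied here, so levels do not separate methylation from incomplete conversion. Of 231516 cytosines with coverage of 20 or more in all 4 libraries, 493 in 165 genes had a mean level of 10% or more and were tested. Of the 493 sites 113 were on the study's high-confidence list, with mean levels of 14.1% and 14.2% in LF and 23.2% and 23.7% in pLF. The mean level over the 493 sites was 18.4% and 20.2% in LF and 27.7% and 28.5% in pLF. The libraries of the groups did not overlap, and the difference was 8.77 points, but the exact permutation test gave p = 0.333, the smallest that 2 libraries against 2 allow. With the mitochondrial chromosome left out the difference was 5.72 points. The 10% minimum was reached only through pLF at 163 of the 493 sites, and with the minimum applied to the LF or the MF libraries alone the difference was 3.74 or 4.91 points. Fisher's exact test on the pooled reads with Benjamini-Hochberg adjustment called 264 of the 493 sites (53.5%), 243 of them higher in pLF (49.3% of those tested) and 21 lower (4.26%). With the mitochondrial chromosome left out it called 185 of 422 sites, 165 of them higher. Fisher's test has no term for the spread between libraries. A beta-binomial test with such a term called 188 sites higher (38.1%) and 9 lower (1.83%), and limma on log odds called 131 higher (26.6%) and 5 lower (1.01%).

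The sites fell into 3 kinds by position, namely isolated nuclear sites with no other tested site within 25 bases, clustered nuclear sites, and mitochondrial sites. Of the 140 isolated sites 134 lay in 130 genes and 6 in none. Their mean level was 13.7% and 13.6% in LF and 22.9% and 23.1% in pLF, and the median difference was 8.60 points (quartiles 4.66 and 13.65). Fisher's test called 88 of the 140 higher and 1 lower, the beta-binomial test 65 and 1, and limma 35 and 0. Of all tested sites these tests called 49.3%, 38.1% and 26.6% higher. The share of isolated sites called higher was above that of all tested sites by Fisher's and the beta-binomial test. By limma it was just below. Both pLF libraries were above both LF libraries at 104 of the 140 sites, beside 58.6% of all tested sites, and below them at 6, beside 9.94%. The mean level used for choosing sites includes the pLF libraries, so a site that reached 10% only there had to differ, which was so at 65 of the 140 isolated sites, 34 of the clustered and 64 of the mitochondrial ones. When the 10% minimum was applied to the MF libraries instead, Fisher's test called 40 of 73 isolated sites higher in pLF and 2 lower, with 61 positive and a median difference of 6.99 points, beside 109 higher and 29 lower of all 338 sites so chosen. When it was applied to the LF libraries, it called 37 of 79 isolated sites higher and 1 lower, with a median difference of 6.68 points, beside 95 higher and 20 lower of 350. Both choices were added after the data were seen. Among isolated sites with coverage of 100 or more in every library, 50 of 60 were called higher by Fisher's test and none lower. Of all 174 sites so covered, tested on their own, it called 116 higher and 11 lower. Of the 60 isolated sites the beta-binomial test called 34 higher and limma 18. These 60 were also chosen on levels that include pLF, and their median levels in LF were 10.8% and 10.4%. Those that reached 10% only through pLF had to differ, and their number was not counted. At the other listed cytosines within 50 bases of the isolated sites, the pooled unconverted share was 0.183% and 0.204% in LF and 0.170% and 0.179% in pLF. Taken per site, over 121, 122, 101 and 116 sites that had listed neighbours, the median unconverted share of the neighbours was 0.448% and 0.415% in LF and 0.752% and 0.617% in pLF, and the mean 0.941% and 0.871% in LF and 1.54% and 1.16% in pLF. The pooled and the per-site shares thus differed in direction, and the part of unconverted neighbours in the site differences was not tested.

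**Figure D1:**
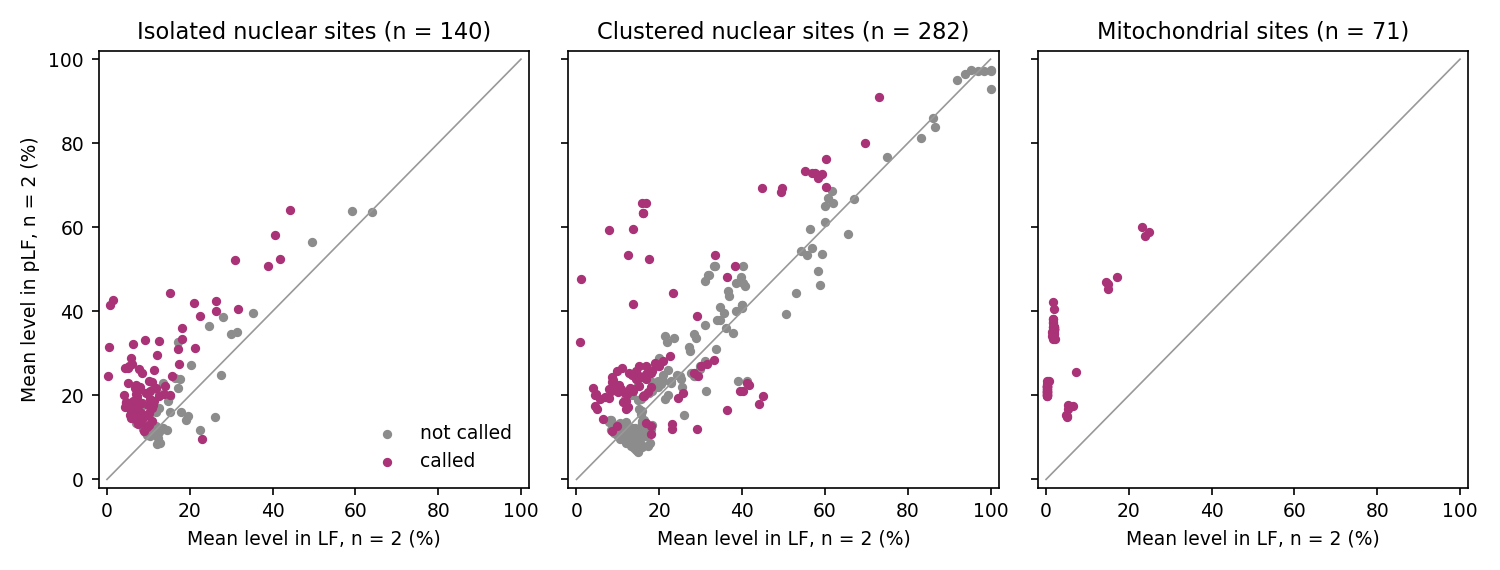
Mean level of each tested site in the pLF libraries (vertical axis, %) against the LF libraries (horizontal axis, %), with 1 point for each of the 493 sites, a panel for each kind of site, and sites called by Fisher's test in purple. Mean levels of isolated sites were 13.7% and 13.6% in LF and 22.9% and 23.1% in pLF, and all 71 mitochondrial sites, 64 of which reached the 10% minimum only through pLF, lie above the line of equal levels.

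The largest differences are taken first for genes of RNA binding and translation initiation. At the Hnrnpa2b1 3′UTR site, in the mRNA of an RNA-binding protein of splicing and RNA transport, levels were 0.990% and 0.259% in LF and 50.1% and 33.1% in pLF, over 715 to 1268 reads. Few reads were thus unconverted in both LF libraries and many in both pLF libraries (difference 41.0 points). The site was not on the study's high-confidence list, and whether these reads were methylated was not tested. Eif4b encodes an initiation factor that assists the helicase eIF4A, and its 5′UTR site had levels of 1.85% and 1.06% in LF and 57.1% and 28.1% in pLF. Coverage was low there, with 21 reads in the first pLF library (Wilson 95% interval 36.5% to 75.5%, counting error only). The coding site of Eif3e, which encodes a subunit of initiation factor eIF3, had 0.135% and 0.255% in LF and 31.7% and 17.5% in pLF. The 3 sites, and that of Slc6a6, had levels under 2% in both LF libraries. Of the 10 sites, 9 passed the 10% minimum only through pLF, all but that of Thbs3, so they had to differ, and their values are a description.

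Slc6a6 encodes the taurine transporter, and its 3′UTR site had 0.572% and 0.426% in LF and 23.3% and 39.9% in pLF (difference 31.1 points). Thbs3 encodes a thrombospondin of the extracellular matrix, and its coding site had 13.9% and 16.4% in LF and 44.2% and 44.5% in pLF (29.2 points, limma adjusted p = 0.00561). Csnk2a1 encodes the catalytic subunit of casein kinase 2, and its site had 2.40% and 6.10% in LF and 20.5% and 32.5% in pLF (22.3 points). In these genes the groups did not overlap, which the choice of sites required. The pLF libraries differed widely at the site of Pgm2, a phosphoglucomutase gene, with 14.0% and 50.6% against 4.20% and 8.33% in LF, and limma did not call it (adjusted p = 0.0785). Sorcs2, a sorting receptor gene, had 8.12% and 10.5% in LF and 30.2% and 36.3% in pLF. Crybb1, a crystallin gene, had 6.25% and 5.13% in LF, over 32 and 39 reads, and 33.3% and 24.5% in pLF. Mfsd10, a transporter gene, had 3.42% and 7.30% in LF and 19.5% and 34.4% in pLF. The unconverted share of its listed neighbours within 50 bases was 1.26% and 0.943% in LF and 4.90% and 2.66% in pLF. Both pLF libraries were also above both LF libraries in this share at Thbs3, Sorcs2, Csnk2a1 and Eif3e. At Eif3e it was 0.154% and 0.146% in LF and 2.57% and 1.58% in pLF. At Eif4b it was 0.433% in the second LF library and 9.38% in the second pLF library, and the first libraries had no listed neighbours. At Slc6a6 and Hnrnpa2b1 the groups overlapped in it, and at Crybb1 it was 2.53% in the second LF library and 1.27% and 0.499% in pLF. The pLF libraries had no listed neighbours at Pgm2.

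**Figure D2:**
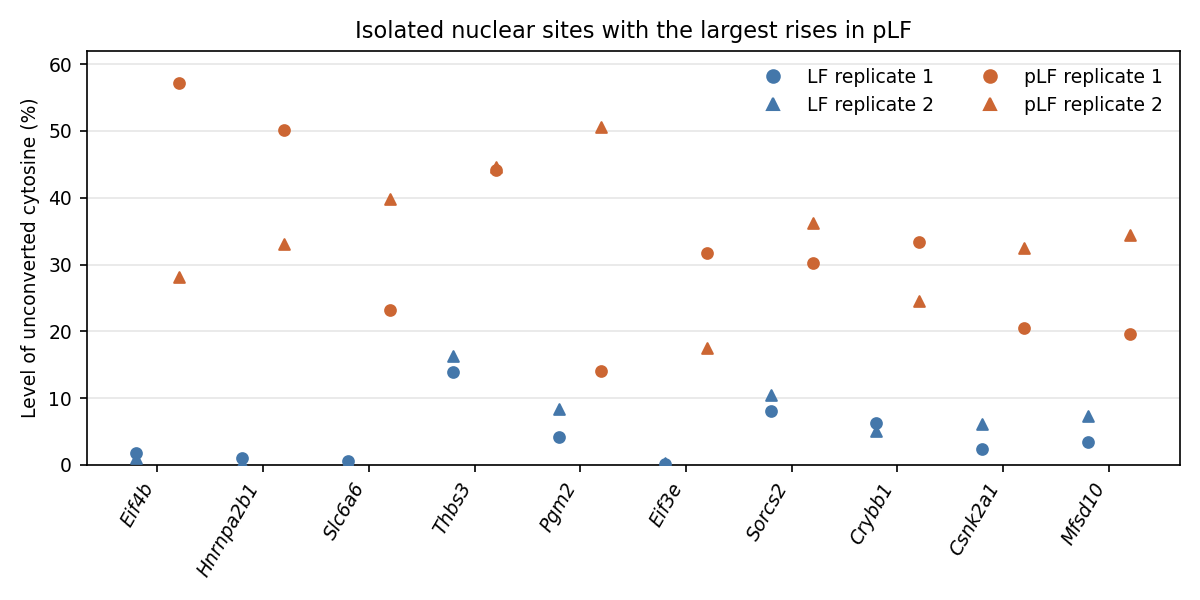
Level of unconverted cytosine (%) in each library at the 10 isolated sites with the largest called rises, with 1 point for each LF and pLF library. In all 10 both pLF points lie above both LF points, which the choice of sites required.

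Besides that of Sorcs2, 25 isolated sites lay in genes of a list drawn from those the study named, and 10 of them, among them those of Fscn1, Hnrnph1, Ccdc107 and Hdgf, passed the 10% minimum only through pLF and had to differ. Fscn1, which encodes the actin-bundling protein fascin, had 7.63% and 7.37% in LF and 18.1% and 19.0% in pLF (11.1 points). Cotl1, an actin-binding protein gene, had 11.3% and 11.2% in LF and 26.4% and 25.6% in pLF (14.7 points, limma adjusted p = 0.0224). Hnrnph1, a splicing regulator gene, had 7.59% and 8.54% in LF and 22.8% and 21.1% in pLF at its coding site (13.9 points). Ccdc107 had 5.01% and 7.18% in LF and 24.9% and 30.1% in pLF (21.4 points). The sites of Rela, an NF-κB subunit gene (16.1 points), and Rptor, an mTORC1 subunit gene (10.6 points), were called by Fisher's test. The beta-binomial test called both (adjusted p = 0.00043 and 0.00667), and limma called neither (adjusted p = 0.0718 and 0.0891). Hdgf and Ybx3 had differences of 2.80 and 2.97 points, and limma called neither (adjusted p = 0.42 and 0.454). Ptprn, Samd14, Col4a6 and 1 of the Piezo1 sites were called by no test. The study chose these genes on libraries of this series, so their direction is not independent evidence.

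Isolated sites called higher in pLF were found with and without the sequence features of the known enzymes. GGG with 1 base between it and the cytosine (CNGGG, read on the sense strand only) was found at 33 of 140 isolated sites (23.6%), 7.80% of clustered sites and 2.06% of 230372 background cytosines. TCCA followed the cytosine, giving CTCCA, at 7 of 140 isolated sites (5.0%), 0.709% of clustered sites and 0.770% of background cytosines. Fisher's test called 19 of the 33 isolated sites with GGG higher and none lower, with a median difference of 6.88 points, and 69 of the 107 without GGG higher and 1 lower, with a median of 9.02 points. Of the 7 CTCCA sites 6 were called higher, with a median of 13.2 points, beside 62.9% of all isolated and 49.3% of all tested sites. The 10% minimum was reached only through pLF at 3 of the 7 CTCCA sites, 13 of the 33 with GGG and 65 of all 140 isolated sites, which had to differ. The split by sequence was not repeated on sites chosen by LF or MF, so these counts are a description. The CTCCA sites other than those of Thbs3 and Csnk2a1 are shown because they share the sequence searched for, with the cytosine in capitals.
Col23a1 (chr11:51582286-51582306, plus strand, 3′UTR): tgtccccttcCtccaagggca
Igfbp6 (chr15:102149243-102149263, plus strand, coding sequence): ttgccagtgtCtccagatggt
Bag6 (chr17:35142777-35142797, plus strand, coding sequence): cggccaactcCtccacaggct
Slc25a23 (chr17:57045628-57045648, minus strand, coding sequence): gcccgcaggtCtccatggtgg
Sdc3 (chr4:130824045-130824065, plus strand, 3′UTR): ggacacgtgtCtccaaagtgc
Bag6, a chaperone gene, had 18.4% and 17.9% in LF and 38.1% and 33.8% in pLF. Slc25a23, a mitochondrial carrier gene, had 7.56% and 6.60% in LF and 18.2% and 22.4% in pLF. Sdc3, a heparan sulfate proteoglycan gene, had 38.8% in both LF libraries and 47.8% and 53.7% in pLF. In these 3 the groups did not overlap. At Col23a1, a collagen gene, the pLF libraries lay on either side of LF, with 41.0% and 5.88% against 11.1% and 9.41%, and the difference was -4.35 points without the first pLF library. A match of letters is a description and does not name the enzyme at a site.

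By region, Fisher's test called higher 6 of 15 isolated sites in 5′UTRs, 44 of 63 in coding sequence and 30 of 46 in 3′UTRs, where the 1 lower call lay. The 10% minimum was reached only through pLF at 5, 33 and 21 of these sites, which had to differ, so the regions cannot be ranked from these counts, which stand beside 88 of all 140 isolated sites (62.9%) and 49.3% of all tested sites. Among the 48 tested sites listed for MF, 28 were called higher and none lower.

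Clustered sites moved in both directions. The 282 clustered sites lay in 34 genes, apart from 6 sites in none, with mean levels of 24.4% and 27.9% in LF and 29.1% and 31.2% in pLF and a median difference of 2.89 points. Fisher's test called 84 higher (29.8%) and 20 lower, beside 49.3% and 4.26% of all tested sites. The beta-binomial test called 52 higher and 8 lower, beside 38.1% and 1.83% of all tested sites, and limma 29 and 5, beside 26.6% and 1.01%. By Fisher's test no gene held calls in both directions, with 18 genes holding higher and 6 holding lower calls. The genes named here were chosen after their values were seen. Ntn1, which encodes the guidance cue netrin-1, had 7 of 7 sites higher, with mean levels of 10.5% and 17.7% in LF and 61.3% and 61.7% in pLF. Fastk, a kinase gene of the FAST family, had 4 of 9 sites lower, with 31.7% and 34.2% in LF and 19.2% and 25.9% in pLF. Gabarap, an autophagy gene, had 37 sites and no call. Sites of 1 cluster share reads and are not independent.

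Mitochondrial sites were 71 in all, 41 in mt-Co1 and 30 in mt-Cytb. At 64 of them the 10% minimum was reached only through the pLF libraries, where reads were few, so that the direction there was fixed by the choice of sites and the levels are a description. In mt-Cytb, the cytochrome b gene, the mean level was 1.97% and 1.62% in LF and 36.1% and 35.9% in pLF. In mt-Co1, a cytochrome c oxidase gene, it was 5.43% and 3.27% in LF and 28.9% and 22.9% in pLF. Median reads per site in mt-Co1 were 31903 and 40884 in LF and 51 and 173 in pLF, and in mt-Cytb 1622 and 2165.5 in LF and 27 and 38 in pLF. Over all 617 mitochondrial cytosines with coverage of 20 or more in the 4 libraries, the median level was 0.542% and 0.484% in LF and 2.90% and 3.91% in pLF. Their median coverage was 5068 and 6072 in LF and 299 and 735 in pLF. A listed cytosine has at least 1 unconverted read, so its level cannot fall below 1 over its coverage. The part of the lower coverage in these levels was not tested.

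The same contrast at mid folate gave differences of the same direction at most isolated sites. Of the tested sites 367 were also covered in the MF and pMF libraries, and limma's interaction term called 0.0% of them (45 sites, or 12.3%, at an unadjusted p under 0.05), and 19 sites without the second pLF library. Over 118 isolated sites the median difference was 9.02 points at low and 7.62 points at mid folate, and 109 were positive at mid folate. Of 80 isolated sites called higher at low folate, 78 were positive at mid folate. The sites were chosen on the low folate libraries, pLF included, so the differences at low folate can be raised by the choice relative to those at mid folate, and the sizes at both are a description. Over 38 mitochondrial sites the medians were 20.9 and 6.83 points, and over 211 clustered sites 4.03 and 0.65 points. The sites named next were also picked for their low folate difference. The site of Hnrnpa2b1 differed by 9.38 points at mid folate and that of Eif3e by 5.01 points, while those of Thbs3 (31.3 points) and Sorcs2 (34.6 points) were at least as large as at low folate. A difference of these sites between folate levels was not called.

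**Figure D3:**
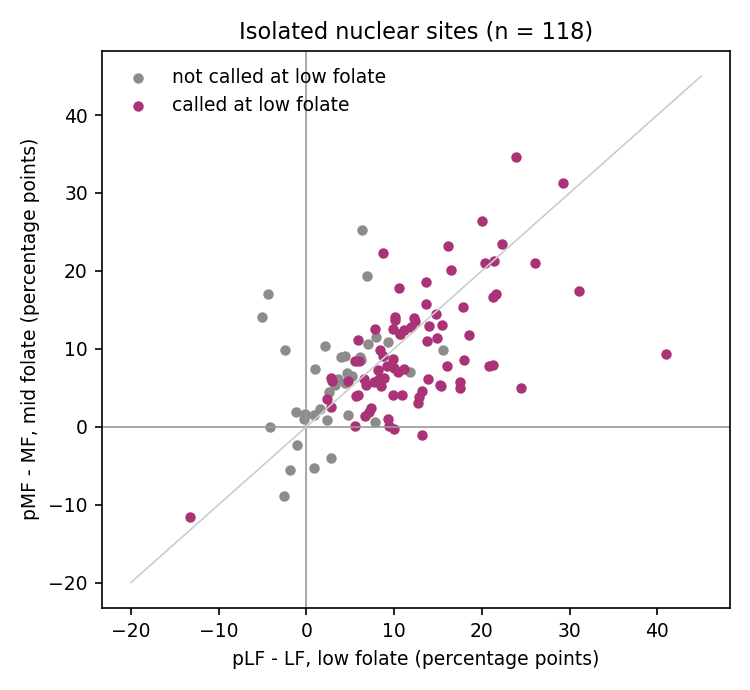
Difference in level between polysome and total mRNA at mid folate (vertical axis, percentage points) against low folate (horizontal axis), with 1 point for each of 118 isolated sites, those called at low folate in purple, and a line of equal differences. Median differences were 9.02 points at low and 7.62 points at mid folate.

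Polysome loading, the coverage of a gene in polysome mRNA relative to total mRNA, was the other readout. It was taken from the coverage of background cytosines (level under 5%), as the log2 of the median coverage of a gene relative to the median gene of its library, with 10 or more such cytosines in each library. Of 13739 genes with a background cytosine 7669 passed, and 2442 passed in LF only and 155 in pLF only. Replicates correlated with r = 0.901 in LF and 0.811 in pLF across genes, which are not independent. limma called 0.0% of the 7669 genes (smallest adjusted p = 0.075), and 2046 genes (26.7%) had an unadjusted p under 0.05, 1133 of them higher in pLF (14.8%). The cytosines listed for a gene differ between libraries. When coverage was taken over the same cytosines, listed in all 4 libraries, 2705 genes remained testable, replicates correlated with r = 0.994 and 0.956, and limma called 1589 genes (58.7%), 727 higher (26.9%) and 862 lower (31.9%). Without the first or the second LF library it called 933 or 920 genes in all. The relative coverages, log2 differences and calls per gene below are those of this fit unless another measure is named. In this fit 1 is the median of its 2705 genes, not that of the 7669 genes of the first measure. Polr2b, for example, stood at 0.421 and 0.516 in LF in this fit and at 1.55 and 1.91 by the first measure. With mean in place of median coverage, over all 7669 genes, limma called 1800. The measures correlated with Spearman's rho = 0.723 across the 2705 genes.

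Among genes with 50 or more background cytosines, the largest rise on the same cytosines was that of Pck2, mitochondrial phosphoenolpyruvate carboxykinase. It stood at 0.418 and 0.404 times the median of the 2705 genes in LF and 4.11 and 4.35 times in pLF. The log2 difference was 3.36 ± 0.14 SE (n = 2 and 2, limma adjusted p = 0.000221), and 2.51 by the first measure. Slc7a5, a transporter of large neutral amino acids, stood at 0.272 and 0.266 in LF and 2.84 and 2.66 in pLF (log2 difference 3.35, and 2.12 by the first measure). Psph, the final enzyme of serine synthesis, stood at 0.914 and 0.961 in LF and 5.10 and 7.74 in pLF (log2 difference 2.74, and 2.52 by the first measure). In all 3 the pLF libraries lay far above LF. Ndufa4, a respiratory chain gene, stood at 0.249 and 0.272 in LF and 1.75 and 2.49 in pLF (log2 difference 3.01), and Atpif1, the inhibitor of the mitochondrial ATPase, at 0.895 and 0.891 in LF and 4.19 and 5.76 in pLF (2.46). The other genes of the 10 largest rises were Tmem132a, Lsm4, Rpl9, Krtcap2 and Ddrgk1 (2.51 to 2.87). By the first measure Tmem132a differed by 1.27, Ddrgk1 by 1.73, Lsm4 by 2.78 and Krtcap2 by 3.77, and with mean coverage Tmem132a differed by 0.95 (adjusted p = 0.0469). Rpl9 differed by 0.04 by the first measure, and whether its reads were shared with pseudogenes was not tested.

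The largest falls on the same cytosines began with Polr2b and were smaller by the first measure in those named with both values. Polr2b, a subunit of RNA polymerase II, stood at 0.421 and 0.516 in LF and 0.0219 and 0.0329 in pLF (log2 difference -4.12 ± 0.23 SE, limma adjusted p = 0.000266, and -2.39 by the first measure). Tcf12, a bHLH transcription factor of neural progenitors, stood at 1.78 and 1.62 in LF and 0.0937 and 0.131 in pLF (log2 difference -3.94, and -2.40 by the first measure). Pum2, an RNA-binding repressor of translation, stood at 0.926 and 0.867 in LF and 0.0529 and 0.0885 in pLF (log2 difference -3.71, and -1.79 by the first measure). In each the groups were far apart. G3bp2, a stress granule protein gene, differed by -3.38, and Ywhah, Ryk, Pls3, Gpm6b and Cp by -3.59 to -3.38. By the first measure G3bp2 differed by -2.15, Ywhah by -1.78, Ryk by -2.09, Pls3 by -2.92 and Cp by -2.62. Gpm6b differed by -0.80 by the first measure. With mean coverage Ywhah differed by -0.35 (adjusted p = 0.370) and Ryk by -0.75 (adjusted p = 0.070), neither of them called. Rpl7a-ps11, a pseudogene near-identical to a ribosomal protein gene, differed by -3.74 here and by 0.85 by the first measure, so its direction was not settled.

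**Figure D4:**
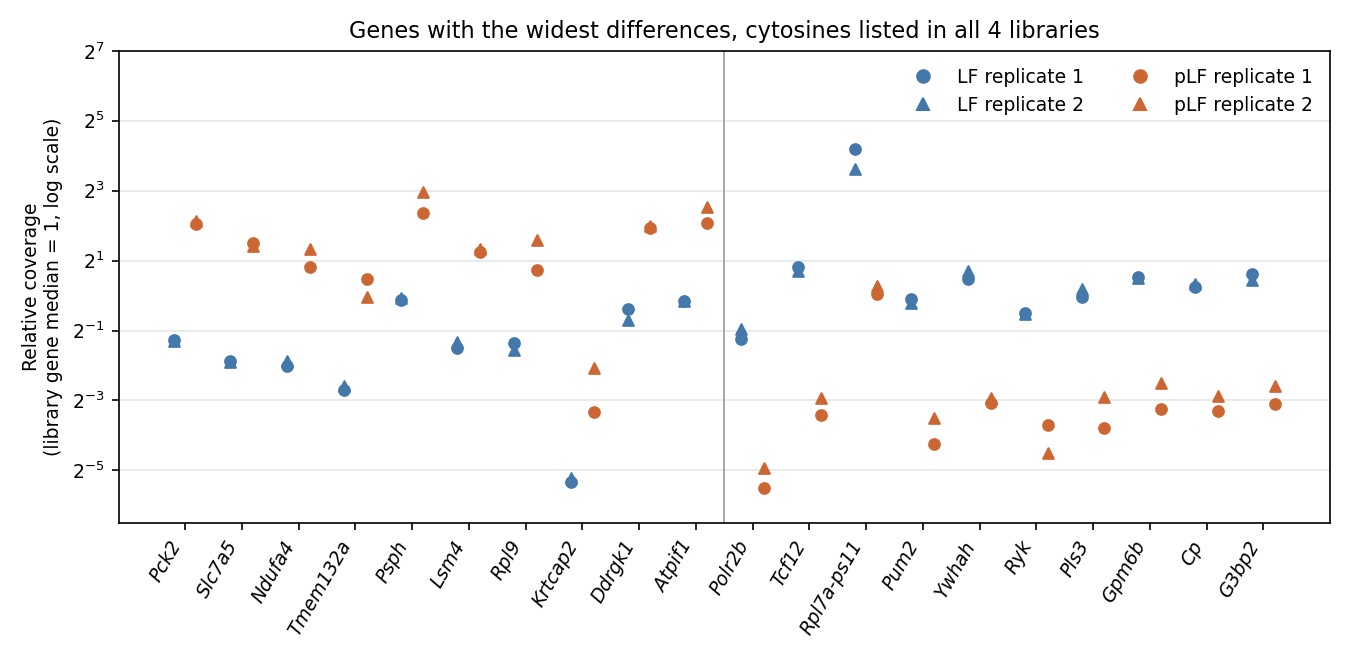
Relative coverage of the 20 genes with the largest rises and falls in each LF and pLF library. The axis is logarithmic, and 1 is the library's median over the 2705 genes measured on cytosines listed in all 4 libraries. Pck2 stands at 0.418 and 0.404 in LF and 4.11 and 4.35 in pLF, and Polr2b at 0.421 and 0.516 in LF and 0.0219 and 0.0329 in pLF.

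The list of ATF4 targets and mRNAs with uORFs rose most among the lists with more than 10 genes measured. Of its 24 genes 20 were measured, with a median log2 difference of 1.95 by the first measure beside 0.07 for all genes, and 19 were positive. On the same cytosines 10 of 13 rose and 1 fell (median 1.32, beside -0.05 for all genes), where 26.9% of all genes rose and 31.9% fell. Shmt2, mitochondrial serine hydroxymethyltransferase, stood at 0.381 and 0.349 in LF and 1.80 and 2.03 in pLF (log2 difference 2.39). Mthfd2, the mitochondrial enzyme of the folate cycle, stood at 0.484 and 0.502 in LF and 1.85 and 2.75 in pLF (log2 difference 2.19). Cebpb, Slc3a2, Atf5, Phgdh, Ddit4 and Psat1 also rose (1.04 to 2.30), and Sesn2 fell by 0.79 on the log2 scale, but with mean coverage Psat1 (0.65, adjusted p = 0.185) and Sesn2 (-0.14, adjusted p = 0.785) were not called. Atf4 itself stood at 0.667 and 0.673 in LF and 0.870 and 1.88 in pLF, which limma did not call (adjusted p = 0.0599). Ddit3, the CHOP gene, was measured by the first measure only, at 0.935 and 0.839 in LF and 10.2 and 24.7 in pLF (log2 difference 4.16, adjusted p = 0.075). Of 19 aminoacyl-tRNA synthetases, which charge tRNAs, 14 rose and 1 fell (median 0.86, and 0.72 by the first measure). Cars rose by 2.13 and Yars by 1.64, and Dars fell by 1.50 on the log2 scale.

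Lists of nuclear-encoded mitochondrial genes held more rises than falls, and the mitochondrially encoded mRNAs measured fell. Of 64 nuclear-encoded respiratory chain genes 30 rose and 10 fell, beside 26.9% and 31.9% of all genes (median 0.37, and 0.78 by the first measure). Uqcr11, a subunit of complex III, rose by 1.96, while Cox7a2l, an assembly factor of respiratory supercomplexes, fell by 3.18 on the log2 scale, but differed by 0.08 where the mean coverage replaced the median. Of 32 mitochondrial ribosomal protein genes 14 rose and 2 fell (median 0.37, and 0.75 by the first measure), with Mrps9 at 1.82. Of 31 proteasome subunits 9 rose, a share near that of all genes, and 4 fell (median 0.25, and 0.43 by the first measure). Of 13 mitochondrially encoded mRNAs 3 were measured, and all 3 fell. mt-Cytb stood at 5.59 and 7.22 in LF and 0.0427 and 0.0585 in pLF (log2 difference -6.99, and -4.28 by the first measure), mt-Co1 differed by -3.25 and mt-Nd6 by -1.63.

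Cytosolic ribosomal protein genes rose and fell in shares near those of all genes (26.9% and 31.9%), and translation factor genes held more falls. Of 64 cytosolic ribosomal protein genes 16 rose and 23 fell, with a median of -0.30 on the same cytosines and 0.10 by the first measure, so the sign of the median differed between them. Rpl38 rose by 2.36 and Rpl22l1 fell by 2.85 on the log2 scale. Of 39 translation factor genes 5 rose and 18 fell (median -0.43, and -0.21 by the first measure). Eif3e stood at 0.840 and 1.00 in LF and 0.0548 and 0.105 in pLF (log2 difference -3.60), and Pabpc1, the poly(A)-binding protein gene, at 1.55 and 1.66 in LF and 0.166 and 0.233 in pLF (-3.03). Eif4ebp1, the inhibitor of eIF4E, rose by 1.87 (1.05 by the first measure).

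Genes of splicing, the cell cycle and the matrix held more falls than rises, beside 26.9% rising and 31.9% falling of all genes. Of 46 splicing factor genes 4 rose and 23 fell (median -0.67, and -0.02 by the first measure). Sf3b1, a core subunit of the U2 particle, stood at 0.967 in both LF libraries and 0.113 and 0.114 in pLF (log2 difference -3.09). Of 27 DNA replication and cell cycle genes 3 rose and 16 fell (median -0.52, and -0.30 by the first measure), with Mki67 at -2.78 (-0.71 by the first measure) and Top2a at -1.59, the latter not called with mean coverage (-1.15, adjusted p = 0.0901). Of 18 extracellular matrix genes 1 rose and 8 fell (median -0.38, and -0.37 by the first measure), with Fn1, fibronectin, at -1.15, which was not called with mean coverage (-0.52, adjusted p = 0.25). Of 14 neural stem cell genes 2 rose and 4 fell (median -0.17, and -0.04 by the first measure), with Id1 at 1.30, Nes at -1.61 (-0.61 by the first measure) and Notch1 at -1.04 (-1.15 with mean coverage, adjusted p = 0.0763). Of 3 neuronal and glial differentiation genes 2 fell and none rose.

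Genes of folate metabolism and of m5C moved in both directions. Of 14 folate and methionine cycle genes 4 rose and 4 fell, shares near those of all genes, with medians of -0.22 on the same cytosines and 0.03 by the first measure. Shmt2 and Mthfd2, which are in the ATF4 list too, were among those that rose. Ahcy, which clears S-adenosylhomocysteine, rose by 1.01, while Mat2a, which makes S-adenosylmethionine, fell by 1.52 and Tyms, thymidylate synthase, by 0.99 on the log2 scale. With mean coverage Ahcy (0.66, adjusted p = 0.146) and Tyms (0.05, adjusted p = 0.916) were not called. Of 6 m5C writers and readers 2 rose and 2 fell (median 0.17, and 0.72 by the first measure), beside 26.9% and 31.9% of all genes. Nop2, an rRNA methyltransferase gene, rose by 1.42 (0.81 by the first measure) and Ybx3 by 1.63 (0.36 with mean coverage, adjusted p = 0.37, not called). Nsun2 differed by 0.33 (adjusted p = 0.134). Of 14 endoplasmic reticulum chaperone genes 2 rose and 5 fell (median -0.18, and 0.23 by the first measure), with Hsp90b1 at -2.47 and Hspa5 at -1.52, neither of them called with mean coverage (-0.86 and -0.54, adjusted p = 0.0609 and 0.181). Of the study-named genes 4 of 16 rose and 4 fell, and these shares, as that of the falls among the chaperones, lay near those of all genes. Of 12 nuclear and long noncoding RNAs 2 were measured, and of 19 snoRNA host genes 5. Malat1, a nuclear RNA, stood by the first measure at 4.01 and 2.94 in LF and 1.17 and 1.37 in pLF. Gas5, a snoRNA host gene whose RNA is known to sit on ribosomes, stood at 2.44 and 2.21 in LF and 9.23 and 11.5 in pLF, but differed by 0.62 on the same cytosines (adjusted p = 0.0572).

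**Figure D5:**
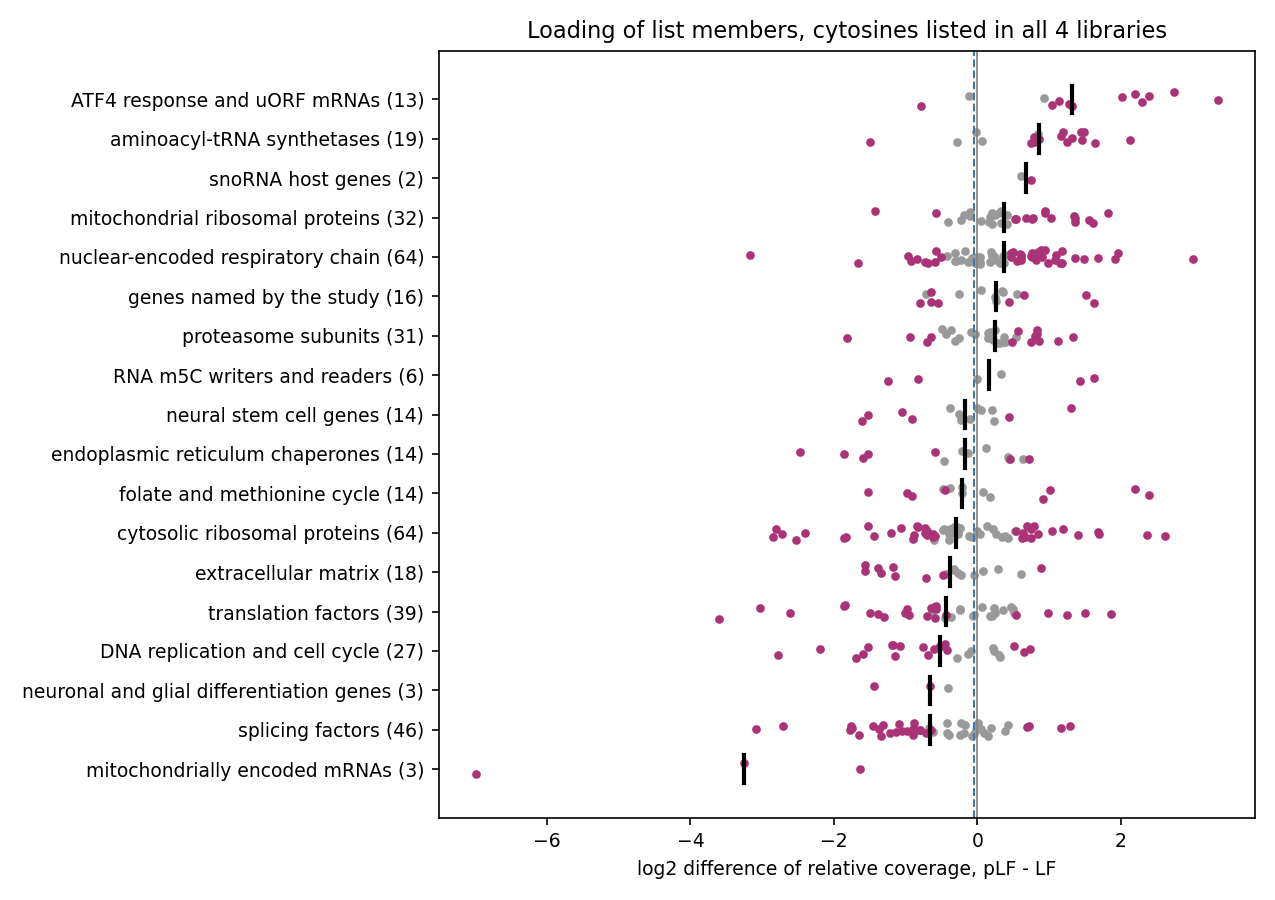
Log2 difference of relative coverage between pLF and LF over the same cytosines for each gene of each list (purple, called by limma), with the list's median as a bar, the median of all genes as a dashed line and the number of genes after the list's name. The median is 1.32 for the ATF4 and uORF list and -0.67 for splicing factors, beside -0.05 for all genes.

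Base composition and length moved with the loading of a gene. Across 2637 genes Spearman's rho of the same-cytosine difference was 0.362 with the GC content of the transcript, -0.192 with coding length and -0.280 with transcript length. In 4 equal bins of GC content the median log2 difference was -0.63, -0.12, 0.18 and 0.29 from the lowest to the highest. In the lowest bin 90 genes rose and 362 fell, and in the highest 253 rose and 87 fell. In 4 equal bins of coding length the medians were 0.15, 0.12, -0.06 and -0.37 from the shortest to the longest. The median GC content was 53.88% in the ATF4 and uORF list, 50.91% in the synthetases, 48.24% in splicing factors and 51.8% in all genes. The median coding length was 4616 bases in the extracellular matrix list and 1362 bases in all genes. The part of base composition and length in the list differences was not tested.

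The loading difference at mid folate was tested by both measures. By the first measure, limma's interaction term called 0.0% of 7338 genes (408 genes, or 5.56%, at an unadjusted p under 0.05). On cytosines listed in all 8 libraries it called 0 of 1306 genes, with 38 at an unadjusted p under 0.05. By the first measure the differences at low and mid folate had Spearman's rho = 0.688 across genes. By the first measure, over the genes measured at both, the ATF4 and uORF list had a median of 1.95 at low and 2.18 at mid folate, and the synthetases 0.72 and 1.24. The respiratory chain list had 0.77 at low and 0.63 at mid folate and the extracellular matrix list -0.37 and -0.56.

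Genes with a higher site level on polysomes lay on both sides of 0 in loading. By the first measure of loading, 111 of the 130 genes with isolated sites had a value, 55 above and 56 below 0 (median -0.01). Of the 78 with a site called higher by Fisher's test, 38 lay above and 40 below 0 (median -0.03). Across the 111 genes Pearson's r between site difference and first-measure loading was -0.093 and Spearman's rho -0.088, as a description over genes that share libraries. The level minimum was reached only through pLF at 65 of the 140 isolated sites, which had to differ. The counts by site call are thus a description too. On the same cytosines 47 of the genes were measured, of which 8 rose and 15 fell (median -0.04), beside 26.9% and 31.9% of all genes. Eif3e had a site 24.4 points higher, while its loading differed by -3.60 on the same cytosines and by -2.69 by the first measure.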

How the data were processed

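RNA BS-seq libraries of poly(A)-selected total and polysome mRNA were analysed from the lists of called cytosines. The authors used fastp for trimming and the meRanTK tools for the rest, with meRanGh aligning reads to mm10, meRanCall listing cytosines and Ensembl giving the gene of each. The deposited values are counts per cytosine, namely coverage, unconverted reads and mismatched reads, and the deposited methylation rate is a fraction. Positions with no unconverted read are not in the lists, so listing depends on depth. The submitters' processing notes name R 4.1.1 and mm10.

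Site levels were computed here as unconverted reads over coverage minus mismatched reads, at coverage of 20 or more in all libraries compared, and tested with Fisher's exact test (scipy 1.17.1), a beta-binomial test and limma 3.58.1 on log odds (pseudocount 0.5) in R 4.3.3. Gene loading used limma on log2 median coverage, centred on the median gene. Adjusted p-values are Benjamini-Hochberg, and 0.05 was the threshold. Python 3.11.15, pandas 2.3.3, numpy 2.4.6 and matplotlib 3.10.9 were used. Fisher's test, the beta-binomial test and the limma loading test were also run on simulated data, and no result here rests on those runs.

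The members, gene lists and tests were chosen with earlier results of these data known. Named genes were the 10 largest in each direction among those called, not overlapping between groups and with 50 or more background cytosines. Because the first loading measure called none, this rule was applied to the fit on cytosines listed in all 4 libraries, which had been planned as an alternative. Named sites were up to 10 in each direction among isolated nuclear sites called by Fisher's test and not overlapping between groups. Sites of genes the study named were added. Alternatives covered coverage and level minimums, scaling, tests, left-out libraries and the replicate block. High-folate libraries and mRNA-seq data were not used here. The isolated site called lower is counted but not reported here.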

Additional observations from a re-analysis of the deposited data

How the results depend on the processing

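The count of loading calls was the result most open to the processing. It was 0 by the first measure, 1589 on the cytosines listed in all 4 libraries, 1800 with mean in place of median coverage and 973 in the fit with the mid folate libraries, and 0 when a library was left out of the first measure. On the same cytosines it was 933 and 920 without the first and second LF library and 2216 and 2232 without the first and second pLF library, where the lone library is assumed to vary like the others. With the replicate number as a block, the same-cytosine fit called 1690 genes. Same-numbered libraries correlated with 0.02 across genes and 0.17 across sites in their deviations from the group means, and with 2 pairs it was not settled whether the numbers pair the libraries. Scaling on summed coverage moved the median of all genes by 0.13 on the log2 scale, and differences are to be read relative to it. Site calls were 264 by Fisher's test, 270 by the Cochran-Mantel-Haenszel test with the replicate number as a block, 197 by the beta-binomial test, 136 by limma and 177 by limma with the block. They were 127 at a coverage minimum of 100, and 589 and 84 at level minimums of 0.05 and 0.2. Sites with no other within 25 bases, mitochondrial ones included, gave 90 calls and other sites 173. The study's list gave 131 and its list for MF 28. With the level minimum applied to the MF or LF libraries (added after seeing the data), calls were 138 and 115 over all sites and 42 and 38 over isolated nuclear sites. In these settings fewer or more sites were tested. The mean level difference was 7.88 to 9.66 points when a library was left out. The interaction on site levels called 0 to 19 sites when a library was left out, with 19 without the second pLF library, and that on loading called 0. Of the named genes, Rpl7a-ps11 reversed to -3.74 on the same cytosines, with or without the block, to -3.45, -4.04, -3.63 and -3.86 on them without LF 1, LF 2, pLF 1 or pLF 2, and to -2.50 with mean coverage, Cox7a2l to 0.083 and Tra2b to 0.11 with mean coverage. By the first measure, leaving out a library gave ranges that crossed 0 for Rpl9 (-0.70 to 0.78), Ybx1 (-0.61 to 0.080), Zfas1 (-0.10 to 0.98), Son (-0.51 to 0.23) and Ccna2 (-2.04 to 0.076), and for the sites of Samd14 (-0.59 to 2.52 points) and Col23a1 (-4.35 to 30.8 points). The causes were not tested. Sites with few reads in pLF, above all the mitochondrial ones, carry wide counting error.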
